A study of Mus musculus with 7 samples.

Results

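The genes described here make up the unfolded protein response and the integrated stress response, the programs by which a cell meets misfolded protein in the endoplasmic reticulum (ER) and shortage of amino acids. A list of 35 genes was sought by name in a table of read counts, and 32 of them were found among 17209 genes. They comprised 14 ER chaperones and folding enzymes, 7 genes of ER-associated degradation (ERAD), 3 genes of the sensing step (Xbp1, Ern1 and Atf6) and 8 of the 11 genes sought for the ATF4 arm. Expression of Trib3, Chac1 and Phgdh of that arm was not analysed here, and only their promoters were read. Every gene of the table exceeds 0.5 CPM (reads of the gene scaled to the library's total) in 4 or more libraries, and a gene read in the pMCAO libraries alone would therefore be missing. The libraries were made from muscularis macrophages, the macrophages of the gut muscle wall, of C57BL6/J mice. They were sorted as CX3CR1-GFP+ cells from the stripped muscle layer of the small intestine, so the cells of both groups carried this reporter. There were 4 libraries from mice 24 h after sham surgery (Sham 1 to Sham 4) and 3 from mice 24 h after pMCAO surgery (pMCAO 1 to pMCAO 3), an operation that the study's title equates with stroke. The labels used here give no age or sex, call the sham libraries biological replicates and the pMCAO libraries replicates, and mention a pool for pMCAO 3. How many animals stand behind each library is not stated, and p-values then reflect only how far these libraries scatter, which may be technical.

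Proteins that enter the ER are folded by chaperones, and those that fail are pulled back into the cytosol and degraded by ERAD. Load on the ER is read by 3 membrane sensors, IRE1 (gene Ern1), ATF6 and PERK (gene Eif2ak3): IRE1 splices the Xbp1 messenger RNA into the form that encodes an active transcription factor, ATF6 is cut to release another, and PERK phosphorylates the initiation factor eIF2, which lowers protein synthesis while favouring translation of ATF4. Other kinases that sense amino acid shortage, viral RNA or heme loss act on the same eIF2 site, and macrophages rely on these programs while they secrete cytokines and enzymes. Counts per gene read neither Xbp1 splicing, nor ATF6 cleavage, nor ATF4 translation.

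The promoters were searched for sequence elements of these responses, and are printed for genes on which the results below turn. The arms were set by the gene list and not by these elements. As that list holds known genes of these responses, the shares below are a description and not an independent result. Promoters (250 bases before to 50 after the start site, RefSeq, GRCm38.p6) matched 31 of the 35 genes and 28 of the 32 with counts. The search covered both strands for the ER stress element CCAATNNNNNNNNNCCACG, its second form ATTGGNCCACG, the XBP1 element TGACGTGG and the C/EBP-ATF composite element TGATGNAAN, the last a site type bound by ATF4 with a C/EBP partner. In the windows below the matched letters of an element are in capitals, written 5′ to 3′ on the strand of the gene, so that an element on the other strand appears reversed and complemented. Hspa5, Hsp90b1 and Syvn1 carry the ER stress element, Herpud1 its second form and a composite element, Asns and Nupr1 a composite element, and Dnajb9, shown because it was the only member that was higher without overlap between the groups, none of these letter strings.
Hspa5 (chr2:34771974-34772093, plus strand): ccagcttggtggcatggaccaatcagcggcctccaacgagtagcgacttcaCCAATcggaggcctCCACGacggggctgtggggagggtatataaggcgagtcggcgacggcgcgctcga
Hsp90b1 (chr10:86705525-86705666, minus strand): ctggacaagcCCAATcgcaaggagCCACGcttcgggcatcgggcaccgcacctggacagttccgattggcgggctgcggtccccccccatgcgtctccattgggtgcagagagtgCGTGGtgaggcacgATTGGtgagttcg
Syvn1 (chr19:6046481-6046600, plus strand): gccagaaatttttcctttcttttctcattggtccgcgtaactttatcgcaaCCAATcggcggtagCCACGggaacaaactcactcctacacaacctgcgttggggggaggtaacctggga
Herpud1 (chr8:94386292-94386411, plus strand): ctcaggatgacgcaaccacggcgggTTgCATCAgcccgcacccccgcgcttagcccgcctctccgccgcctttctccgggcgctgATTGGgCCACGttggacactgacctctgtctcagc
Asns (chr6:7693170-7693289, minus strand): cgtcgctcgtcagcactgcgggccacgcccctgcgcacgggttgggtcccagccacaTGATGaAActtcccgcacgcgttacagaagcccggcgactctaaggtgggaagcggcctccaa
Nupr1 (chr7:126625518-126625637, minus strand): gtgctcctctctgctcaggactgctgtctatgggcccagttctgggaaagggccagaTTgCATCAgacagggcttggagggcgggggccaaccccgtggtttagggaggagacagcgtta
Dnajb9 (chr12:44210019-44210318, minus strand): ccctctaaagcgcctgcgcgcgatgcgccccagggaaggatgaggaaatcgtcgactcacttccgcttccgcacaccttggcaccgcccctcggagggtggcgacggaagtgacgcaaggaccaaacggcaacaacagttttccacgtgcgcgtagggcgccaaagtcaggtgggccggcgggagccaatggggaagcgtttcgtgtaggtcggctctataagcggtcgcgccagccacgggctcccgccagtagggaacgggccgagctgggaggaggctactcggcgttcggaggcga

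The ER stress element stood in promoters of 8 of the 18 chaperone and ERAD genes with a promoter (Hspa5, Hsp90b1, Pdia6, Calr, Canx, Dnajc3, Creld2 and Syvn1) and of 0 of the 8 ATF4 arm genes, against 0.119% of 32851 RefSeq promoters of the same length. Its second form, in Dnajb11 and Herpud1, stood in 0.0365% of them. The composite element was found in 2 of the 8 ATF4 arm genes (Asns and Nupr1) and in 1 ER gene (Herpud1), as well as in Trib3 and Chac1, against 3.95% of all promoters. The XBP1 element, searched only as TGACGTGG, was in no member promoter and in 0.676% of all. Other forms of it were not searched. In Hspa5 the element lay at -65 to -47 from the start site, in Syvn1 at -44 to -26, and Hsp90b1 had 2, at -212 to -194 and at -107 to -89 on the opposite strand. A match is a letter string and not a measured binding site. The 8 genes with the ER stress element had log2 changes from -0.78 (Syvn1) to -0.09 (Canx), so all had lower means after pMCAO. Lower means were also found for 18 of all 21 chaperone and ERAD genes, and higher means for 3. Among the 18 are Sdf2l1 (-0.76) and Pdia3 (-0.35), whose promoters lack the exact element, although that of Pdia3 holds it with 1 mismatch. A link between the element and the change was not tested.

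None of the 32 genes passed the test across all genes, and 27 had lower means after pMCAO. The edgeR quasi-likelihood test with Benjamini-Hochberg adjustment called 0 of 32 members at an adjusted p under 0.05, where 0.0988% of all 17209 genes were called in either direction. Lower means were found for 51.4% of all genes tested, and for 23 to 28 of the 32 members in the alternative fits that kept all of them. The median log2 change was -0.30 over the members and -0.02 over all genes. At an unadjusted p under 0.05 by the same test, 7 members were lower (Hyou1, Calr, Sdf2l1, Herpud1, Syvn1, Xbp1 and Sesn2), where 6.47% of all genes were, and 1 was higher (Dnajb9), where 6.97% were. Sham and pMCAO libraries did not overlap for 5 members with lower values (Hsp90b1, Hyou1, Pdia3, Syvn1 and Sesn2), where 6.58% of all genes did so in that direction. They did not overlap for 1 with higher values (Dnajb9), where 5.99% did. By DESeq2 Dnajb9 was the only member called (1.62% of all genes were called higher by DESeq2), and limma-voom called 0 members. A p that misses the threshold does not show that a gene stayed at its sham level. In bulk RNA, fewer cells that express a gene and less of its RNA per cell cannot be told apart.

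**Figure D1:**
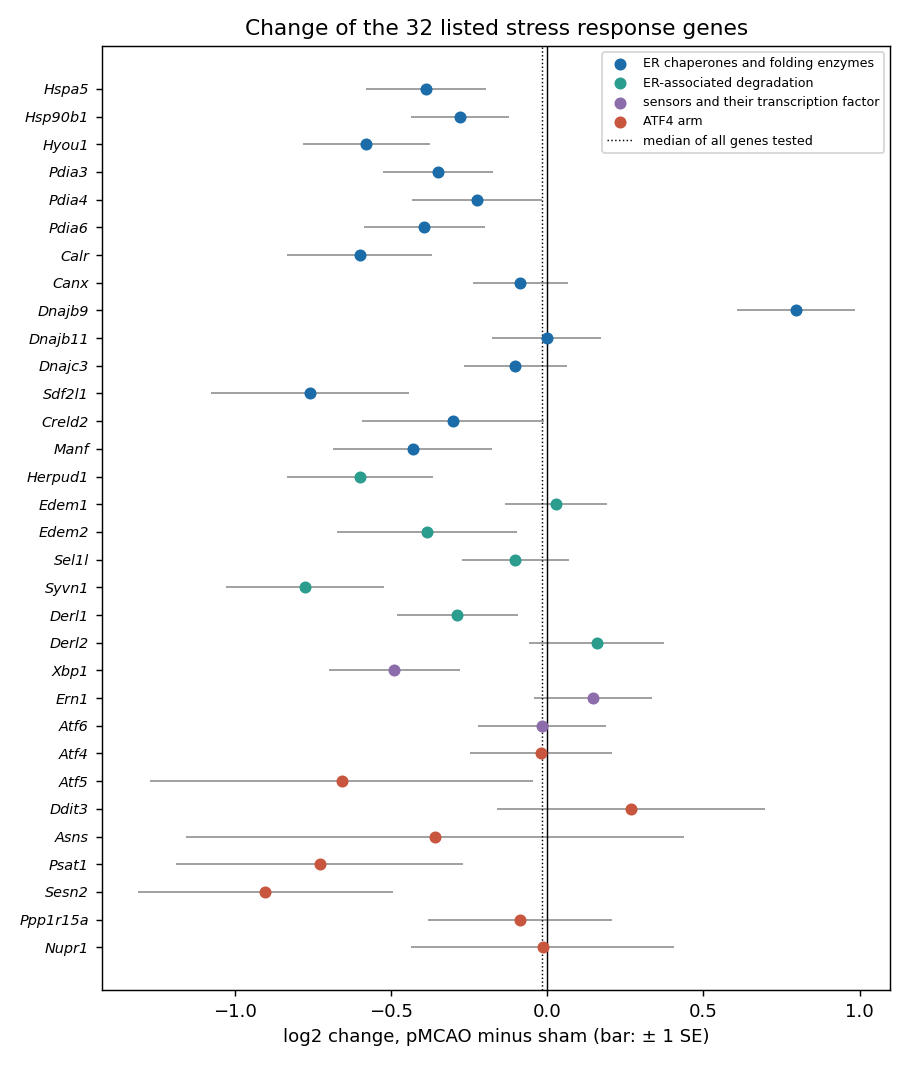
Log2 change from sham to pMCAO (x axis) of the 32 members (y axis, in the order chaperones, ERAD, sensing genes, ATF4 arm), as points coloured by arm with bars of 1 SE, and a dotted line at the median of all genes tested. Most points lie left of 0, Dnajb9 stands apart on the right at 0.80, and the bars of the weakly expressed ATF4 arm genes are the widest.

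The ER chaperones with the most reads per length had lower means after pMCAO, by amounts that did not pass the test. Hspa5, which encodes BiP, the Hsp70 of the ER lumen that also holds the sensors inactive, was at 1008, 1550, 1516 and 1493 CPM across Sham 1 to Sham 4. Across pMCAO 1 to pMCAO 3 it was at 1073, 940 and 1176 CPM. All pMCAO values lay below Sham 2, Sham 3 and Sham 4, while Sham 1 lay among them. The log2 change was -0.39 (SE 0.19, adjusted p = 0.392), and -0.52 (adjusted p = 0.181) without Sham 1. Over the alternative fits it ran from -0.52 to -0.30. Hsp90b1, which encodes GRP94, the Hsp90 of the ER and a chaperone of Toll-like receptors and integrins, was at 1189, 1236, 1291 and 1182 CPM after sham surgery and at 1020, 975 and 1029 CPM after pMCAO. Its groups did not overlap, at a log2 change of -0.28 (SE 0.16, adjusted p = 0.452), which ran from -0.46 to -0.24 over the alternative fits. Exons of Hsp90b1 overlap those of 1810014B01Rik and Gm15344, and its reads are uncertain to that extent. Canx, the membrane-bound lectin chaperone calnexin, was at 582 ± 26.9 CPM (SD, n = 4) and 548 ± 32.4 CPM (SD, n = 3) with overlapping libraries. Its log2 change was -0.09 (SE 0.15, adjusted p = 0.847), and ran from -0.29 to -0.04 over the alternative fits.

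Other chaperones of glycoproteins and helpers of BiP had lower means with wider spread. Calr, the soluble lectin chaperone calreticulin, was at 223, 249, 354 and 307 CPM after sham surgery and 253, 177 and 130 CPM after pMCAO. The groups overlapped through pMCAO 1, and the log2 change was -0.60 (SE 0.23, adjusted p = 0.282). Hyou1, a large Hsp70-like exchange factor of BiP, was at 54.3, 45.0, 66.2 and 57.2 CPM in the sham libraries. It was at 40.5, 34.1 and 37.2 CPM in the pMCAO libraries, all below the lowest sham library, at a log2 change of -0.58 (SE 0.20, adjusted p = 0.247). Pdia3, the disulfide isomerase ERp57 that works with calnexin, calreticulin and the class I peptide-loading complex, was at 614, 694, 662 and 632 CPM after sham surgery. It was at 602, 531 and 398 CPM after pMCAO, so the groups did not overlap, although pMCAO 1 came within a few percent of Sham 1 (log2 change -0.35, SE 0.18, adjusted p = 0.406). Sdf2l1, a partner of the BiP cochaperones, was at 35.9, 52.2, 43.0 and 51.9 CPM after sham surgery against 30.5, 38.1 and 12.4 CPM after pMCAO. Its lowest value by far was that of pMCAO 3, and the log2 change of -0.76 (SE 0.32, adjusted p = 0.320) was -0.41 without that library and -0.38 once GC content and exon length were offset, an alternative added after seeing the data.

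The libraries of the remaining chaperone genes overlapped between the groups. The isomerases Pdia4 and Pdia6 had log2 changes of -0.23 and -0.39, Dnajc3, the BiP cochaperone also known as p58IPK, -0.10, and Dnajb11, another BiP cochaperone, -0.00. Creld2 and Manf, small ER proteins that are secreted under stress, had -0.30 and -0.43, the latter -0.76 without pMCAO 2. Exons of Manf overlap those of Dcaf1, 4930524O07Rik and Rbm15b, and those of Pdia6 overlap Atp6v1c2. The adjusted p of these 6 genes ranged from 0.390 for Pdia6 to 0.998 for Dnajb11 by edgeR.

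Dnajb9 had the opposite direction. It encodes ERdj4, a BiP cochaperone that is a known target of XBP1 and that returns BiP to IRE1 to keep the sensor inactive. The sham libraries had 176, 149, 157 and 129 CPM, and the pMCAO libraries 294, 195 and 306 CPM. Every pMCAO library was above every sham library, with pMCAO 2 the nearest to them. The mean was 153 ± 19.3 CPM after sham surgery (SD, n = 4) and 265 ± 60.8 CPM after pMCAO (SD, n = 3), a log2 change of 0.80 (SE 0.19), with an adjusted p = 0.117 by edgeR. It passed with DESeq2 (log2 change 0.81, adjusted p = 0.0121) and with edgeR without pMCAO 2 (0.98, adjusted p = 0.0332), a fit that called 0.436% of all genes higher. In the other alternatives its adjusted p lay between 0.0724 and 0.351 and its log2 change between 0.62 and 0.87. The gene (ENSMUSG00000014905) lies on the minus strand of chromosome 12 from 44205559 to 44210326 of GRCm38.

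**Figure D2:**
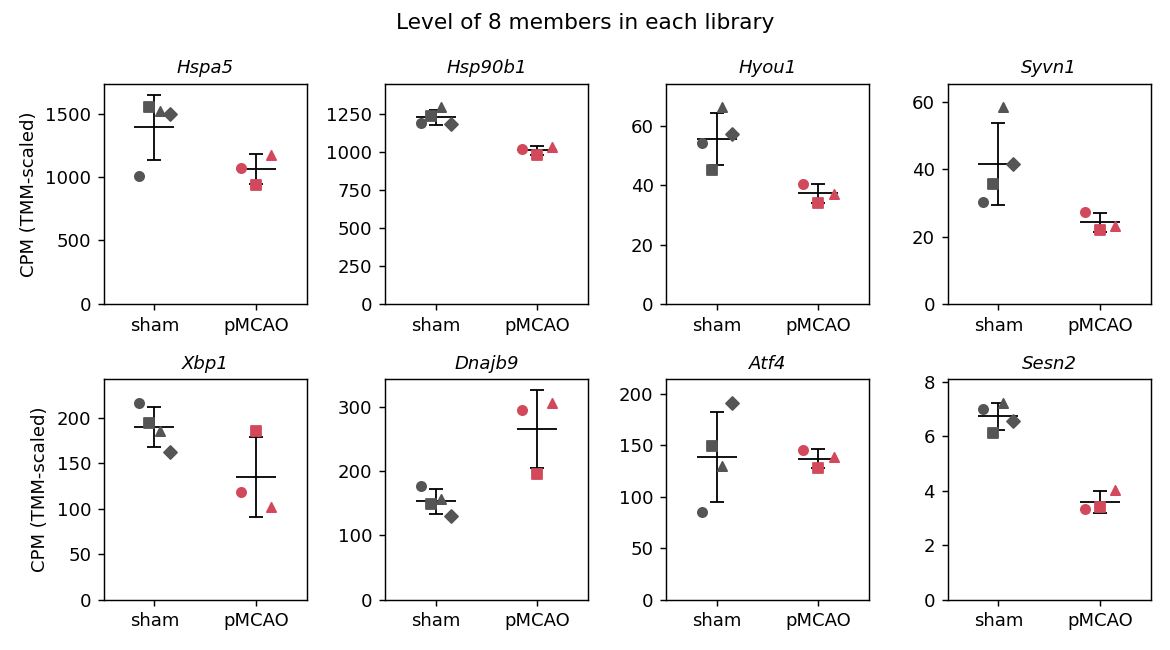
TMM-scaled CPM (y axis, from 0) of 8 members in the 4 sham and 3 pMCAO libraries (x axis), as points by library (circle, square, triangle and diamond for numbers 1 to 4) with the mean and SD. Dnajb9 is higher in all 3 pMCAO libraries (195 to 306 CPM) than in any sham library (129 to 176 CPM), Hsp90b1, Hyou1, Syvn1 and Sesn2 are lower in all 3, and Atf4 lies within the sham range.

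Among the ERAD genes of the ubiquitin ligase complex at the ER membrane, Syvn1 and Herpud1 had lower means, and Sel1l stayed within the sham range. Syvn1, which encodes the ligase HRD1, was at 30.3, 35.7, 58.5 and 41.7 CPM after sham surgery and at 27.4, 22.1 and 23.3 CPM after pMCAO. The groups did not overlap, and the log2 change was -0.78 (SE 0.25, adjusted p = 0.215). The GC and length offsets brought it to -0.45 (adjusted p = 0.558). Sel1l, the membrane partner that stabilizes HRD1, was at 162, 186, 232 and 204 CPM after sham surgery and 181, 168 and 198 CPM after pMCAO, well within the sham range (log2 change -0.10, SE 0.17, adjusted p = 0.838). Herpud1, an HRD1 adaptor whose promoter holds the second form of the ER stress element, was at 106, 131, 87.2 and 107 CPM against 65.3, 98.3 and 49.6 CPM. Here pMCAO 1 and pMCAO 3 were below all sham libraries and pMCAO 2 was not (log2 change -0.60, SE 0.23, adjusted p = 0.284). Without pMCAO 3 it was -0.40 and without pMCAO 2 -0.91 (adjusted p = 0.0789).

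Genes that recognise or carry the substrates of ERAD had values in both directions. Edem1, which trims mannose from misfolded glycoproteins, was at 208, 178, 196 and 171 CPM after sham surgery and 170, 191 and 215 CPM after pMCAO (log2 change 0.03, SE 0.16), and its sign turned in some alternatives, among them the fit without scaling factors (-0.10). Edem2, of the same family, had a log2 change of -0.39, and Derl1 and Derl2, membrane proteins of the retrotranslocation channel, -0.29 and 0.16. Their groups overlapped. Derl2 shares 231 exonic bases with Mis12 and Syvn1 shares 91 with Mrpl49, both on the opposite strand, and the strand setting of the counting is not given in the sources used here.

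Of the sensing genes, Xbp1 had a lower mean, while Ern1 and Atf6 had means close to sham. Xbp1 was at 216, 194, 186 and 163 CPM in the sham libraries and at 118, 185 and 101 CPM in the pMCAO libraries. Values in pMCAO 1 and pMCAO 3 were below all sham libraries and that of pMCAO 2 was among them (log2 change -0.49, SE 0.21, adjusted p = 0.331). The change was -0.78 without pMCAO 2 (adjusted p = 0.0762) and -0.32 without pMCAO 3. Among the fits that left out a library, Xbp1 had an unadjusted p under 0.05 by edgeR only without Sham 4 or without pMCAO 2. Sham 1, its highest library, also had the highest sum of B cell and plasma cell markers (5839 CPM). The part of those cells in the Xbp1 values was not tested. These counts sum the spliced and unspliced forms. Ern1, the IRE1 gene, was at 54.2, 52.9, 65.8 and 73.6 CPM after sham surgery and 63.5, 68.2 and 72.8 CPM after pMCAO, inside the sham range (log2 change 0.15, SE 0.19, adjusted p = 0.780). Atf6 was at 304, 242, 269 and 291 CPM after sham surgery. After pMCAO it was at 234, 209 and 377 CPM, with libraries both below and above the sham range (log2 change -0.02, SE 0.20, adjusted p = 0.983).

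In the ATF4 arm 7 of 8 genes had lower means, and the libraries overlapped between the groups for 7 of 8. Atf4, the transcription factor of the integrated stress response, was at 85.2, 149, 130 and 191 CPM after sham surgery and at 145, 128 and 138 CPM after pMCAO. The pMCAO libraries lay close together within the sham range (log2 change -0.02, SE 0.23, adjusted p = 0.982). Its sign turned in some alternatives, with 0.02 under upper-quartile factors and 0.35 under the GC and length offsets. Ddit3, which encodes CHOP, the factor that promotes death under lasting ER stress, was at 5.08, 16.9, 15.3 and 13.2 CPM after sham surgery and 22.2, 7.63 and 15.98 CPM after pMCAO. Its highest library was pMCAO 1, its lowest Sham 1, and the log2 change was 0.27 (SE 0.43, adjusted p = 0.831). It was 0.01 without Sham 1, -0.10 without pMCAO 1 and 0.60 without pMCAO 2. Exons of Ddit3 overlap those of Mars on the opposite strand. Ppp1r15a, which encodes GADD34, the phosphatase subunit that reverses eIF2 phosphorylation, was at 31.7, 87.5, 64.7 and 94.6 CPM against 65.5, 74.5 and 56.5 CPM (log2 change -0.09, SE 0.29). Without Sham 1, which was the lowest in Atf4, Ddit3 and Ppp1r15a, no member of the arm passed, as in the fit with all libraries. The median log2 change of the arm was then -0.32, against -0.22 with all libraries.

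Sesn2 was the only gene of the arm without overlap between the groups. It encodes sestrin 2, a leucine sensor that restrains mTORC1, and was at 6.98, 6.11, 7.21 and 6.57 CPM after sham surgery and 3.33, 3.39 and 4.04 CPM after pMCAO. These rest on 136 to 239 reads in sham libraries and 39 to 72 in pMCAO libraries. The log2 change was -0.90 (SE 0.41, adjusted p = 0.358), and -0.50 (adjusted p = 0.742) under the GC and length offsets. Psat1, an enzyme of serine synthesis, had a log2 change of -0.73 (SE 0.46), with Sham 1 the highest library at 22.2 CPM and pMCAO 3 the lowest at 3.48 CPM. The change was -0.31 without Sham 1 and -0.38 without pMCAO 3. Asns, asparagine synthetase, was close to the limit of the table, with 0.632 to 3.53 CPM after sham surgery and 0.561 to 2.31 CPM after pMCAO. Its log2 change of -0.36 (SE 0.80) was 0.11 without Sham 2 and 0.03 without pMCAO 3. Atf5, a factor whose translation is controlled like that of ATF4, had a log2 change of -0.66 (SE 0.61) on 18 to 194 reads per library. It was -0.21 without pMCAO 3 and -1.41 without pMCAO 2, and 82 exonic bases of Atf5 are shared with Il4i1 and with Nup62 on the opposite strand. Nupr1, a small stress-induced chromatin protein, had a log2 change of -0.01 (SE 0.42).

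**Figure D3:**
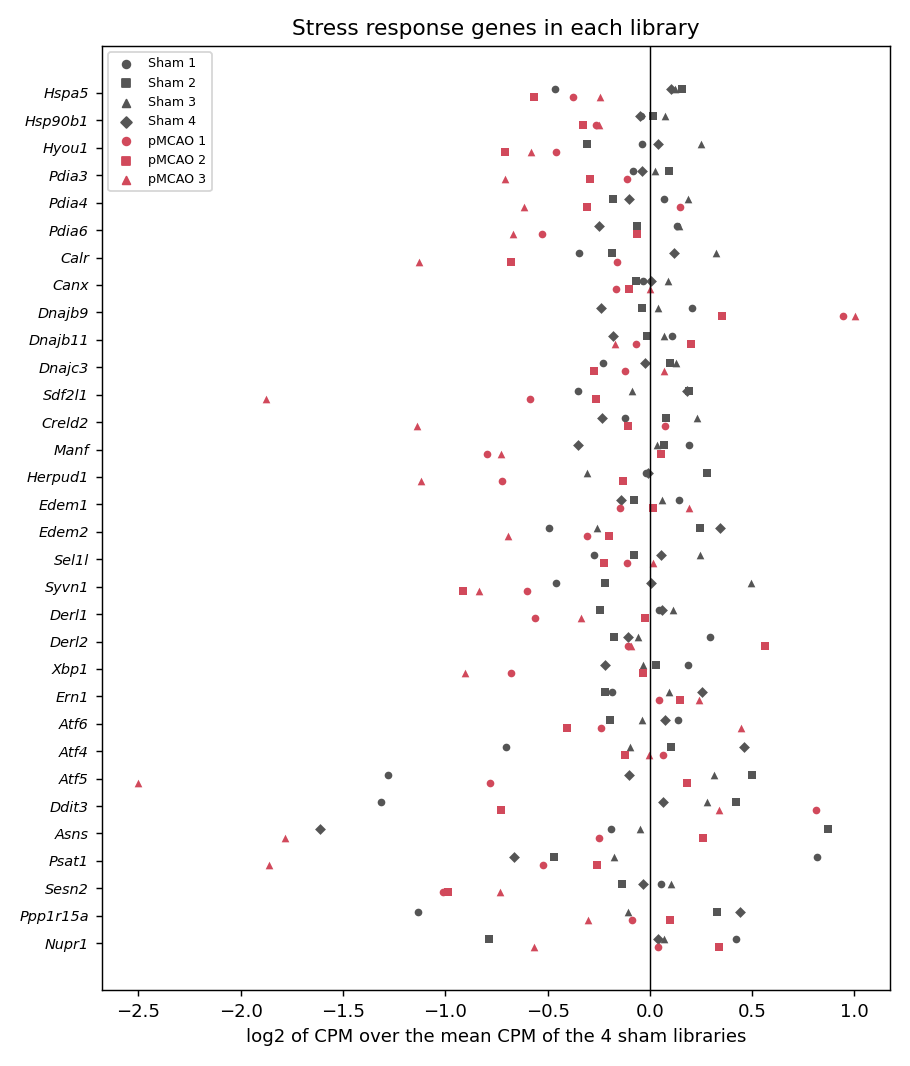
Log2 of each library's CPM over the mean of the 4 sham libraries (x axis) for the 32 members (y axis), with sham libraries in grey and pMCAO libraries in red and a symbol for each library number. The red triangle of pMCAO 3 is the lowest of the 7 libraries for 12 members, a count not made over all genes. The grey circle of Sham 1 lies far left for Atf4, Atf5, Ddit3 and Ppp1r15a.

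Set side by side, both arms averaged below the sham mean in every pMCAO library. The ER arm was also below every sham library in all 3, and the ATF4 arm only in pMCAO 3. The difference between the arms overlapped between the groups. Of the 21 chaperone and ERAD genes 18 had lower means, with a median log2 change of -0.30, and of the 8 ATF4 arm genes 7 had, with a median of -0.22. An arm score averages log2 CPM over the genes of the arm, set to 0 at the sham mean. The ER score took the values -0.07, -0.01, 0.10 and -0.03 across Sham 1 to Sham 4. Across pMCAO 1 to pMCAO 3 it took -0.23, -0.18 and -0.46. The ATF4 score was -0.30, 0.21, 0.15 and -0.05 in the sham libraries and -0.10, -0.05 and -0.78 in the pMCAO libraries. Only pMCAO 3 was below the sham range there, and without it the median of the ATF4 arm was -0.01, while without pMCAO 2 it was -0.53. The ER score minus the ATF4 score ran from -0.22 to 0.23 in sham libraries and was -0.12, -0.13 and 0.33 in the pMCAO libraries. As the members were chosen with results known, these scores are given without a test.

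**Figure D4:**
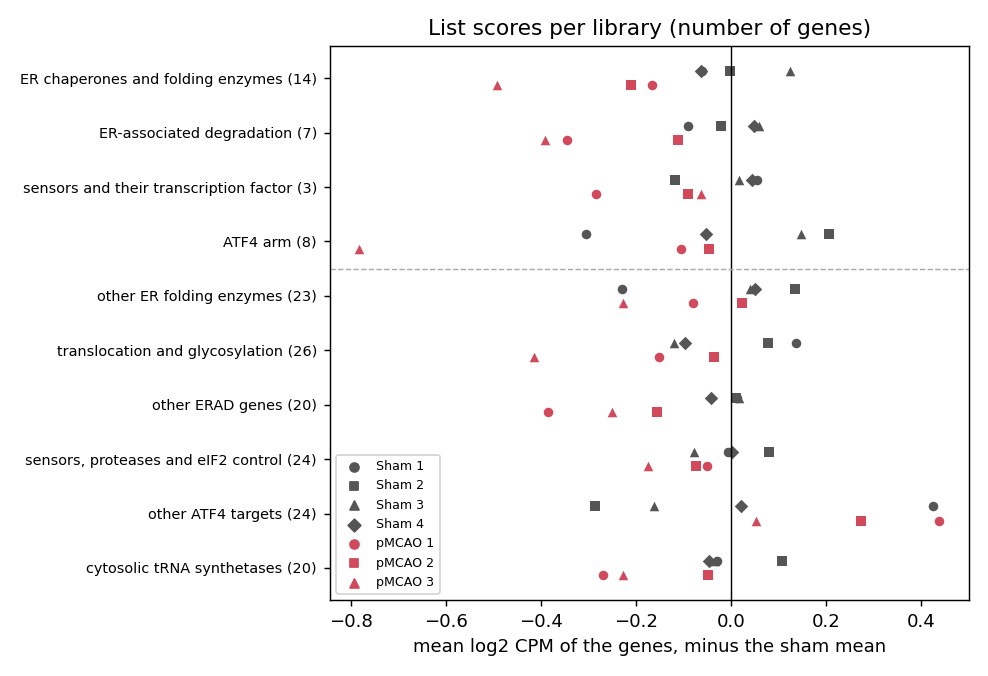
List score (x axis, mean log2 CPM of the genes minus the sham mean) in each of the 7 libraries for the 4 groups of members (above the dashed line) and 6 lists of other genes of the pathway (below it), with the number of genes in brackets. The pMCAO scores of the chaperones and of both ERAD lists are all below the sham scores, as are, narrowly, those of the tRNA synthetases, and those of the ATF4 arm and of other ATF4 targets overlap with them.

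Other genes of the pathway were read from lists, and in none of the 6 lists did a gene pass the test across all genes in either direction. Of 20 other ERAD genes 17 had lower means, with a median log2 change of -0.33. Ube2g2, the ubiquitin-conjugating enzyme that serves ERAD ligases, was at 26.7 ± 2.22 CPM (SD, n = 4) and 13.7 ± 2.72 CPM (SD, n = 3) without overlap (log2 change -0.96, SE 0.25, adjusted p = 0.144). Nploc4, a cofactor of the p97 ATPase, had -0.57, and March6, a ligase of the ER membrane, had a higher mean at 0.50 (adjusted p = 0.280). Of 26 genes of translocation and glycosylation 18 had lower means (median -0.25), among them Sec61a1, the pore of the translocon, at 93.0 ± 10.3 and 67.8 ± 10.6 CPM, Rpn1, a subunit of the oligosaccharyltransferase, and Sec11c, a signal peptidase subunit, with adjusted p of 0.308, 0.295 and 0.283. The 23 other folding enzymes split into 12 lower and 11 higher (median -0.15). Those with the smallest p were Mogs, glucosidase I, and Prkcsh, a subunit of glucosidase II, which trim new glycans, with log2 changes of -0.93 and -0.77, and the peptidyl-prolyl isomerase Fkbp7 with 0.77. Under the GC and length offsets the medians of these lists were -0.20 for ERAD, -0.14 for translocation and -0.06 for folding enzymes.

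Of 24 genes of the sensors, proteases and eIF2 control 15 had lower means (median -0.03). The eIF2 kinases had means in both directions: Eif2ak3 (PERK) was at 43.0 ± 3.09 and 42.1 ± 6.47 CPM, Eif2ak4 (GCN2) at 48.8 ± 5.75 and 59.2 ± 8.34 CPM, Eif2ak1 (HRI) at 52.0 ± 8.73 and 40.4 ± 6.37 CPM and Eif2ak2 (PKR) at 145 ± 21.4 and 125 ± 32.1 CPM. The kinases were named after their values were seen, and their adjusted p ranged from 0.479 to 0.967. By the naming rule, Atf6b, a relative of ATF6, had a log2 change of -0.80 (adjusted p = 0.209), the adaptor Nck1 0.66 (adjusted p = 0.217) and Eif2b4, a subunit of the eIF2 exchange factor, -0.64 (adjusted p = 0.399). Of 20 cytosolic tRNA synthetases, many of which ATF4 induces, 14 had lower means (median -0.17). The score of this list was -0.05 to 0.11 in sham libraries and -0.27, -0.05 and -0.23 in pMCAO libraries, with pMCAO 2 close to the lowest sham library. Vars, Aars and Yars had log2 changes of -0.80, -0.49 and -0.46.

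Of 24 other ATF4 targets 11 had lower and 13 higher means (median 0.03, and -0.10 without scaling factors), and the largest values of single genes were in both directions. Slc7a11, the cystine importer, was at 2.82, 0.387, 1.11 and 0.605 CPM after sham surgery and at 10.7, 12.3 and 5.44 CPM after pMCAO. The pMCAO libraries were all above the sham libraries, at a log2 change of 2.96 (SE 0.64, adjusted p = 0.0795). Ddit4, an inhibitor of mTORC1 that glucocorticoids and hypoxia also induce, was at 45.0, 47.1, 42.1 and 11.8 CPM against 133, 113 and 99.4 CPM, again without overlap (log2 change 1.66, SE 0.37, adjusted p = 0.115). Slc38a2, a neutral amino acid transporter, was at 151 ± 13.2 and 253 ± 58.3 CPM (log2 change 0.74, adjusted p = 0.117). Slc7a5, a leucine transporter, and Mthfd2, a mitochondrial folate enzyme, were lower without overlap. Their log2 changes were -1.47 and -1.14 (adjusted p of 0.256 and 0.261). At an unadjusted p under 0.05 by edgeR, these 2 were lower and 5 of the 24 were higher. Over all genes 6.47% were lower and 6.97% higher. The 5 include Atf3, at 163 ± 34.9 and 265 ± 81.0 CPM with overlapping libraries (log2 change 0.70, adjusted p = 0.193), and Xpot (0.42). Slc7a5, Mthfd2, Atf3 and Xpot were named after their values were seen.

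Levels may be compared between genes per kilobase of exon. By that measure Hspa5 (329 CPM per kb), Hsp90b1 (304) and Pdia3 (207) were the highest members in sham libraries and Asns (0.706), Sesn2 (1.93) and Nupr1 (2.71) the lowest. Atf4 and Xbp1 were level with each other at 58.9 and 58.4 CPM per kb, and Ddit3 was at 7.38 CPM per kb.

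The libraries held 12685941 to 34432716 counts, the fewest in pMCAO 1. All 12 macrophage markers were present in every library, with summed levels of 9921 to 12908 CPM after sham surgery and 8700 to 9482 CPM after pMCAO. Markers of other cells also differed: the 9 blood endothelial markers summed to 128 to 345 CPM after sham surgery and 384 to 528 CPM after pMCAO. The 9 measured fibroblast markers summed to 55.9 to 165 CPM and 108 to 539 CPM in the same order, with none at 0 in any library. The 11 markers of B cells and plasma cells, which have a large ER, summed to 5839 CPM in Sham 1 against 498 to 1251 CPM in the other sham libraries and 606 to 1135 CPM after pMCAO. Mitochondrial ribosomal RNA took 2.42% to 5.82% of sham counts and 8.26% to 12.6% of pMCAO counts. The 10% of genes with the highest GC content deviated from their mean by -0.10 to 0.35 (log2) in sham libraries. In pMCAO 1 to pMCAO 3 they deviated by -0.15, 0.06 and -0.57. Sesn2 and Syvn1 have GC contents of 58.7% and 57.1% against 41.8% for Dnajb9. Canx (42.4%) and Hsp90b1 (42.9%), which also had lower means, are close to Dnajb9 in GC content. The part of these differences in the values of the stress genes was not tested, beyond the offsets for GC content given above. With those offsets the median of the ER arm was -0.31. At an unadjusted p under 0.05 by edgeR 8 members were then lower, where 939 of all 17209 genes were. Hspa5, Hsp90b1, Pdia3, Pdia6 and Canx had joined Hyou1, Calr and Herpud1, while Sdf2l1, Syvn1, Xbp1 and Sesn2 were no longer among them. No member passed the adjusted threshold.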

How the data were processed

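RNA-seq was done on 7 libraries of sorted muscularis macrophages, made from 2.0 ng of total RNA each after cleavage of ribosomal RNA, with paired reads of 100 bases, per the labels' protocols. Per the submitters' processing notes STAR, featureCounts, limma and GRCm38 (mm10) were used, and the sources used here give no version, strand setting or annotation release. The deposited table holds the authors' read counts per gene and the authors' CPM values, which equal the count over the library total to within 0.0005. It also holds the authors' log2 fold changes and mean log2 expression, and the authors' p-values with their FDR; 0 columns of library values lacked a sample.

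Counts as deposited were tested with edgeR 4.0.16 (R 4.3.3) by the robust quasi-likelihood F test, with TMM factors, filterByExpr (17209 of 17209 genes passed), group as the only term, two-sided, and Benjamini-Hochberg adjustment over all genes with a threshold of 0.05. CPM in the text is TMM-scaled, log2 changes are pMCAO minus sham, and the SE is the change divided by the square root of F. A count of 3 is 0.0825 CPM in Sham 4 and 0.256 CPM in pMCAO 1, for counting error only. Reads carry no molecular identifiers. The test was checked on simulated data. Exon lengths, positions and GC content came from GENCODE M21 (GRCm38), which held 99.5% of the gene identifiers, and promoters from RefSeq. Protein sequences were not used here.

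The members and lists were chosen with earlier results of these data known. Values in every library are given for members with an unadjusted p under 0.05, without overlap, with the 2 highest mean CPM of an arm, or among 5 regulators, and up to 3 genes of smallest p from each other list. Alternatives were 17 settings, covering DESeq2 1.42.0, limma-voom (limma 3.58.1), normalization, filters, depth, a replicate block and leaving out each library, and 1 added after seeing the data, the offsets for GC content and exon length.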

Additional observations from a re-analysis of the deposited data

Results flagged for a closer look

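Hspa5 in Sham 1, at 1008 CPM, lay apart from the other sham libraries at 1493 to 1550 CPM, with a gap of 0.896 of the range of the 4 sham values. It was the only 1 of 32 members to stand apart in this way, and chance gives about 1 in 20. The 11 markers of B cells and plasma cells summed to 5839 CPM in the same library, and their part in the Hspa5 value was not tested.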

How the results depend on the processing

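Over up to 17 alternative fits 22 of 32 members kept their direction, 20 of them lower (16 of the ER arm, 3 of the ATF4 arm and Xbp1) and 2 higher (Dnajb9 and Ern1). Those that turned include Atf4, Nupr1, Ppp1r15a, Dnajb11 and Creld2 (0.02 with the offsets below). The number of genes called over the whole table was 17 and moved to 470 with DESeq2, 35 with limma-voom, 34 with upper-quartile factors, 29 without scaling factors, 76 over genes of at least 5 CPM, 38 after thinning to the smallest library and 98 at an adjusted p under 0.10. Leaving out each library gave 0 (without pMCAO 1, where 944 genes were higher and 1043 lower at an unadjusted p under 0.05 by edgeR) to 100 (without pMCAO 2). Members called higher were 0 to 1 over these fits and 1 with DESeq2, Dnajb9 each time. Members without overlap were 6 over all libraries (18.8% of members, against 12.6% of all genes) and 7 to 12 leaving out a library. The share of all genes went up as well, to 27.9% without pMCAO 2 (12 members, 37.5%) and 22.5% without Sham 1 (8 members, 25.0%). Without scaling factors the median of all genes was -0.14 and that of the ER arm -0.43, a difference of -0.29 as in the fit with TMM factors. With a replicate block 21 genes and 0 members passed, and same-numbered libraries did not deviate together (correlations of -0.08, -0.01 and 0.10), so the numbers were not taken as pairs. With 1 mismatch allowed the ER stress element was in 13 of 18 ER genes, in 1 of 8 ATF4 arm genes (Ddit3) and in 1.5% of all promoters. The exact composite element TGATGCAAT was in 1 of 8 ATF4 arm genes. Under the GC and length offsets, added after seeing the data, the medians were -0.31 for the ER arm and -0.09 for the ATF4 arm. The cause of these differences was not tested. The low counts of Asns, at 10 to 82 reads per library, limit what can be seen of it.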

Other observations

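The library Sham 1 was below the other sham libraries for 4 of the 8 ATF4 arm genes. It had 2.36 CPM of Atf5 against 5.33 to 8.09 CPM, 5.08 CPM of Ddit3 against 13.2 to 16.9 CPM, 31.7 CPM of Ppp1r15a against 64.7 to 94.6 CPM and 85.2 CPM of Atf4 against 130 to 191 CPM. Psat1 was higher in Sham 1, at 22.2 CPM against 7.97 to 11.2 CPM, and so was Nupr1, at 9.14 CPM against 3.96 to 7.16 CPM. Sesn2 (6.98 CPM) and Asns (1.69 CPM) lay within the range of the other sham libraries. Of the 32 members, Sham 3 had the highest value of the 7 libraries for 12 and the lowest for 0. The library pMCAO 3 had the lowest for 12 and the highest for 3. The same counts were not made over all genes, so they are not shown to be particular to the members.

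By FDR in the authors' deposited table, 0 of the 32 members had an FDR under 0.05. The log2 fold changes of the authors' deposited table had the same sign as those of the edgeR fit for 29 of 32 members. The authors' deposited table gives larger changes for Herpud1 (-1.22, FDR 0.133), Sdf2l1 (-1.52, FDR 0.160), Xbp1 (-0.83, FDR 0.171) and Dnajb9 (1.01, FDR 0.144), as well as Atf5 (-2.25, FDR 0.194) and Asns (-1.95, FDR 0.342). The authors' deposited table gives smaller changes for Hyou1 (-0.22, FDR 0.728), Syvn1 (-0.52, FDR 0.484), Sesn2 (-0.71, FDR 0.579) and Calr (-0.48, FDR 0.475). Medians in the authors' deposited table were -0.27 for the ER arm, -0.62 for the ATF4 arm and -0.03 for all genes.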
